A study of Xenopus laevis with 2 samples.

Results

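The cell cycle regulators on the Agilent *Xenopus laevis* array were the gene probes whose annotation text named a cyclin or cyclin-dependent kinase, a cell division cycle protein (including cdc followed by a digit), aurora, a polo-like kinase, the anaphase promoting complex, origin recognition, geminin, securin, E2F or GADD45. Texts on minichromosome maintenance were left out. Of 21495 gene probes, 52 met this rule, for 47 distinct genes by name. Measured values played no part in the rule. No probe had a text on aurora, securin or GADD45 (0 probes each). Of the 52 probes, 31 could be paired with a RefSeq symbol, which is given in brackets below.

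Cyclins bind and switch on cyclin-dependent kinases (CDKs), and different cyclins do so at different steps. D and E cyclins act on the way into DNA replication, and A and B cyclins act during replication and mitosis. CDK inhibitors and the Wee1 kinases hold these kinases back, CDC25 phosphatases release them, and the anaphase promoting complex marks mitotic cyclins for destruction. In the early frog embryo, rapid divisions run on maternal stores of these factors and slow down from the mid-blastula on, when the embryo begins to transcribe its own genes.

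The study asked which transcripts respond to EBF3, a helix-loop-helix transcription factor, in animal cap ectoderm, the prospective epidermis taken from the top of the blastula. Caps were dissected at stage 9 from embryos injected with 1 ng of mRNA for hGR-Xebf3, an EBF3 made dependent on hormone by fusion to part of a glucocorticoid receptor, and kept in 30 µM dexamethasone (DEX) for 4.5 hours (active EBF3). Control caps came from embryos that received 0.4 ng of hGR mRNA, without EBF3, and the same DEX treatment (hGR). The labels of these samples name no Noggin mRNA, which neuralizes caps, and the study describes this experiment as done without it. Each group was hybridised in Cy3 on 1 array against Cy5-labelled RNA of hGR-Xebf3 caps without DEX (the reference), with 0 dye swaps. The EBF3 in these caps comes from injected mRNA and not from the embryo's own gene. Between hGR caps and the reference both the injected mRNA and DEX differ, and array and group cannot be told apart. The caps with DEX were in Cy3 and the reference in Cy5 on both arrays. A dye bias of a probe and a difference from the reference therefore cannot be told apart, also where both arrays lie on the same side. With 1 sample in each group no test was possible. Errors (±) are the spot errors of the scanner software on the log2 scale, and they leave out any spread between embryos or arrays. A level or difference of RNA here may come from fewer cells of a type or from less RNA per cell, which cannot be told apart.

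Nearly all members gave a clear signal. On the active EBF3 array 48 of 52 members (92.3%) were well above background in both channels, against 50.7% of all gene probes, and on the hGR array 47 of 52 (90.4%), against 49.2%. Neither array had a saturated member (0 members). The same 4 members were well above background in neither channel of either array, and no fold is given for them. These were cdk-8-prov (cdk19.L), CDC14a (cdc14a.L), Y10075, which is 1 of 2 cyclin D2 probes, and BE680928, an expressed sequence tag. Spots of cdk9-prov and of LOC398159 (e2f3.S) were non-uniform on both arrays. In the hGR hybridisation this also held for ccnh-A (ccnh.L) and cdc37-prov, which left 50 and 48 members. Of these, 46 and 43 were well above background in both channels and are called measured below.

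Most members differed little from the reference. On the active EBF3 array 1 of 50 members was at least 2-fold higher, cyclin D1, and 1 was at least 2-fold lower, cyclin E2. Of all gene probes 2.11% were 2-fold higher and 2.03% were 2-fold lower (4.14% either way), so that 2 of 50 members lay close to the background share. The median log2 ratio was -0.11 for the members and -0.09 for all gene probes, and 43 of 50 members (86.0%) lay within 0.5 of 0, against 84.9% of all gene probes. On the hGR array 0 members were 2-fold higher and 3 of 48 were 2-fold lower, namely p16Xic2, cyclin B5 and cdk-8-prov, the last of which was at background in both channels. Of all gene probes 1.02% were 2-fold higher and 4.08% were 2-fold lower on that array (5.09% either way). The split of all 2-fold calls depended on the scaling: it was 217 higher and 870 lower here, and 2826 and 673 with median centring in place of a dye curve. With active EBF3 it was 450 and 432, and 1889 and 882 with median centring. Among the 43 measured members on the hGR array, 2 were 2-fold lower, against 1.44% of all measured probes. The median of the members on the hGR array was -0.08, against -0.06 for all gene probes. Among measured probes it was -0.07 against 0.01, and with median centring -0.31 against 0.00. On the active EBF3 array the medians were -0.08 against 0.00 among measured probes and -0.20 against 0.00 with median centring. Of the 43 members measured on the hGR array, 30 had a log2 ratio below 0 and 13 above (30.2%), whereas 51.9% of all measured probes were above 0. On the active EBF3 array 27 of 46 measured members were below 0 and 19 above (41.3%), against 50.4% of all measured probes above 0. The plot of log2 ratios by role shows the band of members around 0 and the few outside it.

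**Figure D1:**
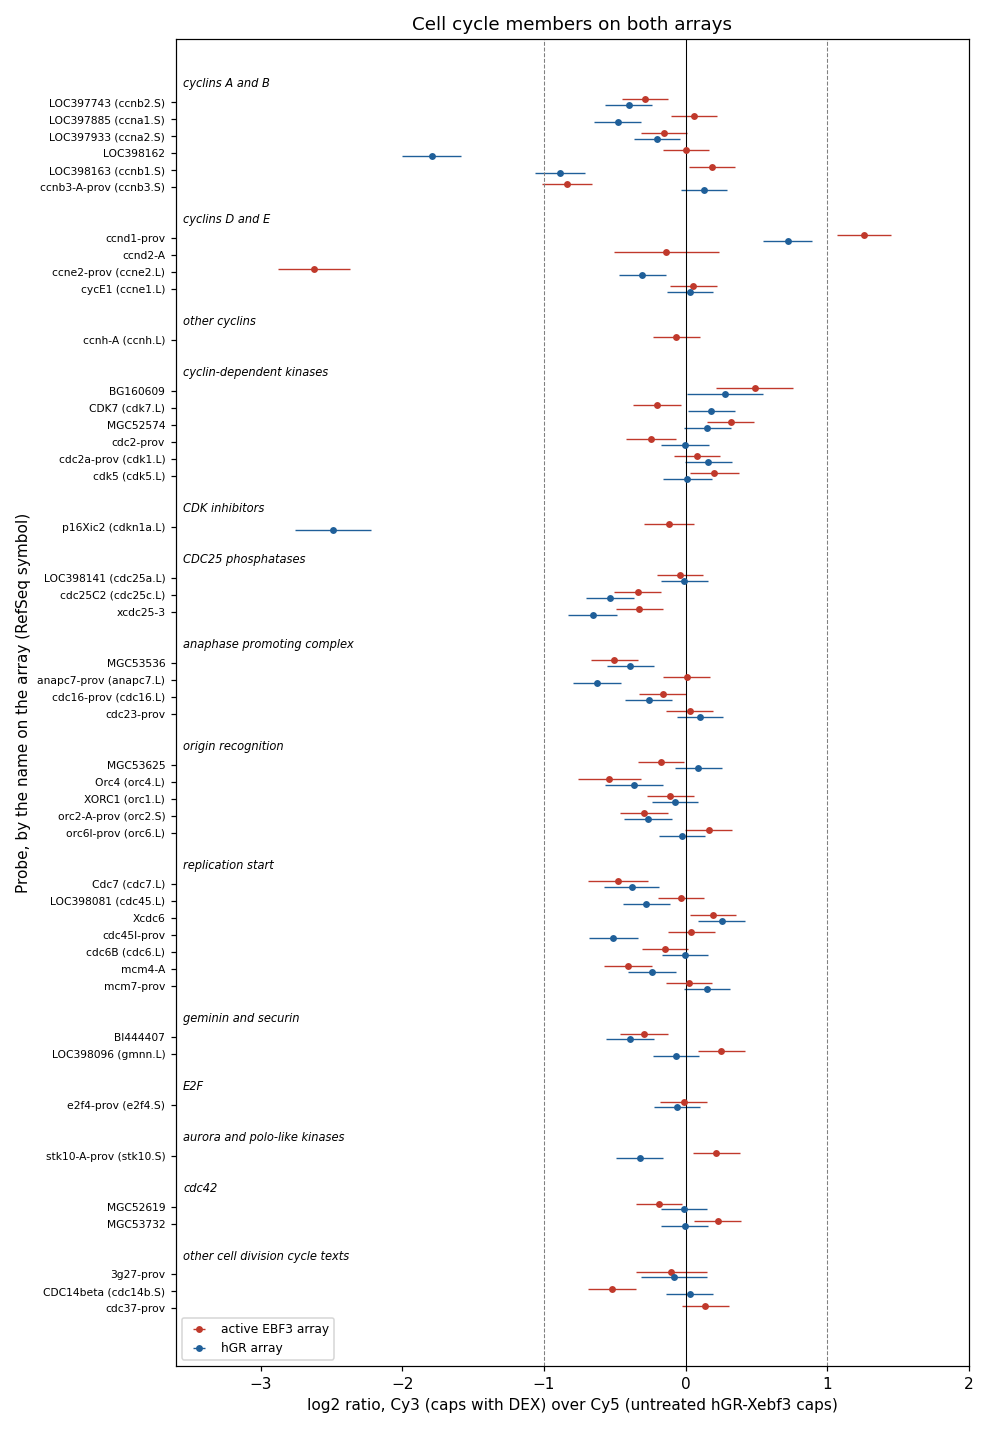
Log2 ratio (x axis) of Cy3, the caps with DEX, over Cy5, the untreated hGR-Xebf3 caps, for each member measured on either array (y axis, by role), with points in red for the active EBF3 array and in blue for the hGR array and bars for the spot error. Dashed lines mark 2-fold. Cyclin D1 (ccnd1-prov) and cyclin E2 (ccne2-prov) pass 2-fold on the active EBF3 array, and p16Xic2 and cyclin B5 (LOC398162) on the hGR array.

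Both arrays carried the same kind of reference in Cy5, so the channels could also be compared within each dye. Between the Cy5 channels, after centring on the median of all gene probes, the 44 members well above background on both arrays differed with an SD of 0.09 on the log2 scale, 0 were past 2-fold and the widest difference was 1.22-fold. All 11243 such gene probes had an SD of 0.17, and 0.187% were past 2-fold. Between the Cy3 channels, which hold active EBF3 and hGR caps, the members had an SD of 0.65 (n = 43 probes), against 0.63 for 10010 gene probes. In Cy3, 3 of 43 members (6.98%) were past 2-fold, against 6.92% of all gene probes (3.09% higher and 3.84% lower). The spread of members between the treated caps was therefore far wider than that between the reference channels, and as wide as that of the array as a whole. It rests in large part on the 3 members past 2-fold, at -2.37, 2.14 and 1.81 on the log2 scale. With 1 sample in each group, treatment and differences between batches of embryos cannot be told apart in that spread. The 3 members were cyclin E2, which was lower with active EBF3, and p16Xic2 and cyclin B5, which were higher.

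**Figure D2:**
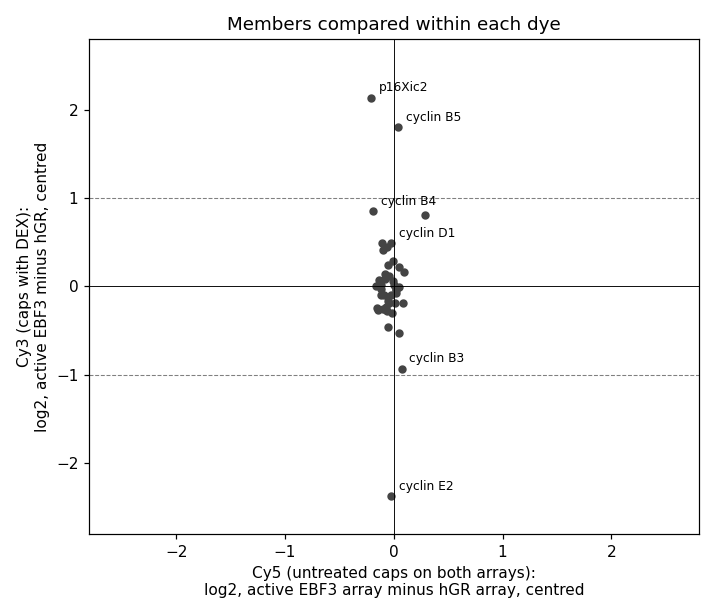
Difference between the arrays (active EBF3 minus hGR, log2, centred on all gene probes) in Cy3, the caps with DEX (y axis), against that in Cy5, the untreated caps (x axis), with 1 point for each of the 43 members measured on both arrays and dashed lines at 2-fold. The points form a narrow vertical band: cyclin E2 lies below -1 and p16Xic2 and cyclin B5 lie above 1 in Cy3, while no member passes 1.22-fold in Cy5.

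Among the G1 cyclins, cyclin E2 (ccne2-prov, ccne2.L), which pairs with CDK2 at the start of replication, had the most negative log2 ratio of all members with active EBF3. Its processed signal was 3689 in Cy3 and 22753 in the reference on the active EBF3 array, and 15718 in Cy3 and 19418 in the reference on the hGR array. The active EBF3 caps thus stood apart from the other 3 channels. Its log2 ratio was -2.62 ± 0.25 (6.17-fold lower) in active EBF3 caps and -0.31 ± 0.16 (1.24-fold lower) in hGR caps. The difference of the log2 ratios, -2.32 (4.99-fold), was close to the 5.18-fold lower signal in the Cy3 channels alone. Cyclin E1 (cycE1, ccne1.L), the other E-type cyclin, had log2 ratios of 0.06 ± 0.16 and 0.03 ± 0.16, both within the spot error.

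Cyclin D1 (ccnd1-prov), which couples growth signals to CDK4, was on the other side of the reference. Its signal was 24401 in active EBF3 caps against 10179 in the reference, and 14286 in hGR caps against 8663. Both DEX-treated samples were therefore above both reference channels, with the active EBF3 caps above the hGR caps. Both were in Cy3, so dye and treatment cannot be told apart here. Cyclin D1 had a log2 ratio of 1.26 ± 0.19 (2.40-fold higher) in active EBF3 caps and of 0.72 ± 0.17 (1.65-fold higher) in hGR caps, a difference of 0.54 (1.45-fold), so that less than 2-fold separated active EBF3 from the hGR control. Cyclin D2, another partner of CDK4, was near background: ccnd2-A gave a log2 ratio of -0.13 ± 0.37 with active EBF3. With hGR its Cy3 channel was not well above background, and the bound on its fold was 1.48-fold lower. That bound sets the brighter channel against the lowest signal well above background. It leaves out the spot error, which was 0.39 on the log2 scale. With normexp background correction and an offset of 50 the log2 ratio with hGR was -0.21, which is short of that bound.

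**Figure D3:**
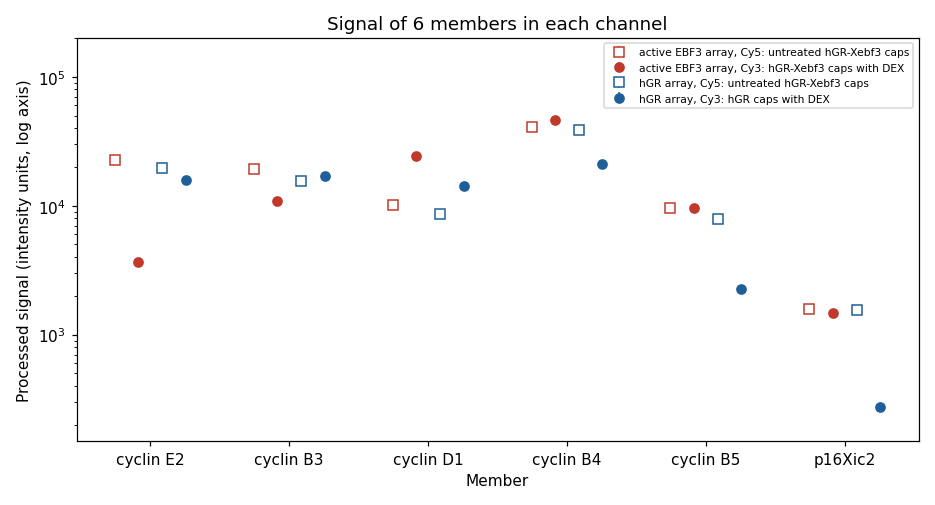
Processed signal (y axis, intensity units on a log axis) of 6 members (x axis) in each channel, with open squares for the untreated hGR-Xebf3 caps in Cy5 and filled circles for the caps with DEX in Cy3, in red for the active EBF3 array and in blue for the hGR array. Bars for the software's error of a signal lie mostly within the symbols. The red circle stands below the other 3 channels for cyclin E2 and cyclin B3, and the blue circle for cyclin B4, cyclin B5 and p16Xic2, while both circles lie above both squares for cyclin D1.

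The A and B cyclins, which drive mitosis, were all measured on both arrays (6 of 6). With active EBF3 they had a median log2 ratio of -0.08 (range -0.84 to 0.19), and with hGR -0.44 (range -1.79 to 0.13), where 5 of 6 were below 0. Cyclin B5 (LOC398162) had signals of 9629 with active EBF3, 9609 in the reference of that array, 2263 with hGR and 7841 in the other reference. Here it was the hGR caps that stood apart. The log2 ratio of cyclin B5 was 0.00 ± 0.16 with active EBF3 and -1.79 ± 0.21 (3.47-fold lower) with hGR. Cyclin B4 (LOC398163, ccnb1.S) had signals of 46339 with active EBF3 against 40655 in the reference, and of 21036 with hGR against 38883. Its log2 ratios were 0.19 ± 0.16 and -0.89 ± 0.18, a difference of 1.08 (2.11-fold) between the arrays. In the Cy3 channels alone the difference of cyclin B4 was 1.81-fold, which is under 2-fold.

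Cyclin B3 (ccnb3-A-prov, ccnb3.S), a B-type cyclin with a sequence class of its own, ran the other way. Its signals were 10863 with active EBF3 against 19408 in the reference, and 16985 with hGR against 15489. The active EBF3 caps were below the other 3 channels, at a log2 ratio of -0.84 ± 0.17 (1.79-fold lower), against 0.13 ± 0.16 with hGR. The difference between the arrays was -0.97 (1.96-fold), just under 2-fold. The other mitotic cyclins stayed nearer to the reference. Cyclin A1 (LOC397885, ccna1.S) had log2 ratios of 0.06 with active EBF3 and -0.48 with hGR, cyclin A2 (LOC397933, ccna2.S) had -0.15 and -0.20, and cyclin B2 (LOC397743, ccnb2.S) had -0.29 and -0.40. By processed signal, not centred between arrays, the hGR channel was the lowest of 4 for all A and B cyclins but cyclin B3. That also held for members of other roles, such as ORC6, cdc6B, Cdc25A and E2F4, so it is not particular to these cyclins. For cyclin A1 the hGR channel was at 36665 against 51101 in the reference of the same array. For cyclin A2 it was at 35973 against 41323, and for cyclin B2 at 142089 against 187689. After centring on all gene probes, the Cy3 difference (active EBF3 minus hGR, log2) was 0.45 for cyclin A1. It was -0.10 for cyclin A2 and -0.03 for cyclin B2, so for cyclins A2 and B2 hGR was not below active EBF3.

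Between active EBF3 and hGR, 3 of 48 members were at least 2-fold higher (p16Xic2, cyclin B5 and cyclin B4) and 1 was 2-fold lower (cyclin E2), by the difference of the log2 ratios. Of all gene probes, 5.12% were 2-fold higher and 3.26% were 2-fold lower (8.38% either way), and the 4 of 48 members lay close to this share. Many of those probes were near background. Among probes measured on both arrays, 3 of 43 members were higher and 1 was lower, against 306 and 347 of 9944 gene probes. There the share of members that were higher was above that of all measured probes, but it rests on 3 members. The median difference was 0.05 for the members and 0.01 for all gene probes. For the 3 members that were higher, the log2 ratio was between -0.12 and 0.19 with active EBF3 and between -2.49 and -0.89 with hGR. The ratio far from 0 was thus that of the hGR array. For cyclin E2 it was that of the active EBF3 array. The reference also carried hGR-Xebf3 mRNA, so these ratios do not place a change in 1 group of caps.

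The only probe for a CDK inhibitor was p16Xic2 (cdkn1a.L), a frog inhibitor that binds cyclin-CDK complexes. Its signal was 1467 with active EBF3 and 1590 in the reference, and 274.2 with hGR against 1542 in the reference. The hGR channel was the lowest of 4, and the reference channels were close to each other. The log2 ratio of p16Xic2 was -0.12 ± 0.18 with active EBF3 and -2.49 ± 0.27 (5.63-fold lower) with hGR, the lowest of all members on that array. With normexp and an offset of 50 it was -1.21 with hGR, and cyclin B5, at -1.57, was then the lower. The Cy3 channels alone differed 4.40-fold. The hGR signal of 274.2 lay near the lowest Cy3 signals flagged well above background on that array. The size of both folds is therefore uncertain.

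The kinases themselves showed smaller ratios. Of 8 probes for CDKs and their small binding partner CKS1, 6 were measured on both arrays, with log2 ratios between -0.24 and 0.49 with active EBF3 and between -0.01 and 0.28 with hGR. The mitotic kinase CDK1 had 2 probes. For cdc2a-prov (cdk1.L) the log2 ratios were 0.08 and 0.16, and for cdc2-prov they were -0.24 and -0.01, each within 1.2-fold of the reference. CDK4 (MGC52574), the partner of D cyclins, had 0.32 ± 0.16 with active EBF3 (87067 against 69773) and 0.15 ± 0.16 with hGR (70781 against 63577). CDK5 (cdk5.L), best known from neurons, had 0.20 ± 0.17 and 0.01 ± 0.17. CDK7 (cdk7.L), which activates other CDKs and also acts in transcription, had -0.20 ± 0.17 and 0.18 ± 0.17. The highest value in the group on both arrays was that of BG160609, a sequence tag similar to CKS1, at 0.49 ± 0.27 and 0.28 ± 0.27. Among the 6 measured probes, no ratio on either array passed 1.5-fold. Cyclin H (ccnh-A, ccnh.L), the partner of CDK7, was at -0.06 ± 0.16 with active EBF3.

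All 3 probes for CDC25 phosphatases, which remove the inhibitory phosphates from CDKs, were below 0 on both arrays. The log2 ratios of xcdc25-3 were -0.33 ± 0.17 with active EBF3 and -0.66 ± 0.17 with hGR (3912 against 4909, and 2625 against 4136). Those of cdc25C2 (cdc25c.L) were -0.34 ± 0.17 and -0.53 ± 0.17 (55377 against 69933, and 45431 against 65810). Both were thus lower than the reference in both DEX-treated samples by more than the spot error. Cdc25A (LOC398141, cdc25a.L) differed from the reference by less than the spot error, at -0.04 and -0.01.

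The anaphase promoting complex and its activator had 4 probes, and all were measured. CDC20 (MGC53536), the activator that brings substrates to the complex in mitosis, was lower in both treated samples, at -0.50 ± 0.17 with active EBF3 (83663 against 118621) and -0.39 ± 0.17 with hGR (78522 against 102864). The subunit APC7 (anapc7-prov, anapc7.L) had signals of 4260 with active EBF3 and 4239 in the reference, and of 2486 with hGR and 3831 in the reference. Only the hGR channel was low, with log2 ratios of 0.01 ± 0.17 and -0.62 ± 0.17. The subunits CDC16 (cdc16.L) and CDC23 lay at -0.16 and -0.26, and at 0.03 and 0.10.

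The members measured among the factors that license and start replication stayed within 1.5-fold of the reference on both arrays. The helicase subunit MCM3, which the rule does not take in, is described with the other genes of the cycle. The origin recognition complex, which marks the sites where replication begins, had 5 probes. With active EBF3 they ranged from -0.54 to 0.16 and with hGR from -0.36 to 0.09, and 4 of 5 were below 0 on each. The lowest on both arrays was ORC4 (Orc4, orc4.L), at -0.54 ± 0.22 (604.8 against 877.5) and -0.36 ± 0.20 (599.0 against 770.8). ORC6 (orc6l-prov, orc6.L) had 0.16 and -0.02, ORC1 (XORC1, orc1.L) had -0.11 and -0.07, ORC2 (orc2-A-prov, orc2.S) had -0.29 and -0.26, and the associated protein p81 (MGC53625) had -0.17 and 0.09. Of these, ORC2 and ORC4 lay below 0 by more than the spot error on both arrays. For ORC4 this depended on the background correction. With normexp and an offset of 50 it was at -0.29 with active EBF3 and -0.21 with hGR, the second close to its spot error.

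CDC6, which loads the replicative helicase at origins, had 2 probes that differed little from the reference. Xcdc6 had log2 ratios of 0.19 and 0.26, and cdc6B (cdc6.L) had -0.14 and -0.01. The kinase CDC7 (Cdc7, cdc7.L), which triggers the loaded helicase, was lower in both treated samples, at -0.47 ± 0.21 (700.5 against 973.4) and -0.38 ± 0.19 (690.8 against 899.9). These values depended on the background correction. With normexp and an offset of 50 the value with active EBF3 was -0.24, close to the spot error. With normexp and no offset the value with hGR was -0.60. CDC45, a part of the active helicase, had 2 probes that both read lower with hGR than with active EBF3. For cdc45l-prov the log2 ratios were 0.04 ± 0.17 and -0.51 ± 0.17, and for LOC398081 (cdc45.L) they were -0.03 ± 0.16 and -0.28 ± 0.16. The reference channels of cdc45l-prov themselves differed by 0.28 (log2, centred), the widest difference among the members. The centred Cy3 channels differed by 0.81 for cdc45l-prov, but by only 0.14 for LOC398081, less than its spot error. The helicase subunits MCM4 (mcm4-A) and MCM7 (mcm7-prov), annotated as cdc21 and CDC47, had -0.41 and -0.24, and 0.02 and 0.15. Geminin, which blocks a second round of licensing, had 2 probes that gave opposite signs with active EBF3: LOC398096 (gmnn.L) at 0.25 ± 0.16 and the sequence tag BI444407 at -0.29 ± 0.17. With hGR they were at -0.07 ± 0.16 and -0.39 ± 0.17. The transcription factor E2F4 (e2f4-prov, e2f4.S), a regulator of replication genes, had -0.01 and -0.06.

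The remaining members have looser ties to the cycle. The kinase xPlkk1 (stk10-A-prov, stk10.S), which activates the frog polo-like kinase, had 0.22 ± 0.17 with active EBF3 (4561 against 3924) and -0.32 ± 0.17 with hGR (2816 against 3521), on opposite sides of the reference. The phosphatase CDC14 beta (CDC14beta, cdc14b.S) was lower with active EBF3 alone, at -0.52 ± 0.17 (2889 against 4136), and stood at 0.03 ± 0.17 with hGR (3430 against 3363). CDC37 (cdc37-prov), a chaperone partner for kinases, was at 0.14 ± 0.16 with active EBF3. The cyclin-like F-box text of 3g27-prov had -0.10 ± 0.25 and -0.08 ± 0.24. Cdc42 (MGC52619), a GTPase of the cytoskeleton, had -0.19 and -0.01, and a CDC42 effector (MGC53732) had 0.23 and -0.01.

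Other genes of the cycle that the rule does not take in had 35 probes, among them helicase subunits, PCNA, Wee1 and checkpoint kinases, condensins, cohesins and Myc. With active EBF3, 1 of 33 was at least 2-fold higher and 0 were 2-fold lower, against 2.11% and 2.03% of all gene probes. Their median log2 ratio was -0.06, against -0.09 for all gene probes. With hGR, 2 of 34 were higher and 0 were lower, against 1.02% and 4.08% of all gene probes. The median there was -0.02, against -0.06 for all gene probes. The 1 probe above 2-fold in active EBF3 caps was WEE2A, an inhibitory kinase, at 54071 against 23698 in the reference (1.19 ± 0.19, 2.28-fold). In hGR caps it was at 15699 against 20303 (-0.37 ± 0.17). The other Wee1 kinase measured, Xe-Wee1A, had 0.31 ± 0.16 and -0.05 ± 0.16. The 2 that were higher with hGR were mcm3-prov (1.62 ± 0.20, 7758 against 2522) and Myc (1.03 ± 0.18, 16027 against 7861). With active EBF3 these stood at -0.20 ± 0.17 and -0.04 ± 0.16. A second MCM3 probe, Xmcm3, was at -0.26 ± 0.17 with hGR, so that the MCM3 probes differed in sign there. A second Myc probe, cmycIae1-A-prov, was above 0 but short of 2-fold with hGR, at 0.54 ± 0.22 (1.45-fold). With active EBF3 it was at 0.12 ± 0.25. PCNA (pcna-A), the clamp of the replication polymerases, was at -0.10 ± 0.16 with active EBF3 and -0.68 ± 0.17 with hGR.

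Some markers of the tissue moved with active EBF3 on the same arrays. The epidermis list held 12 probes with keratin or dlx3 in their text. It was made by text alone, and not every keratin need be particular to epidermis. Of the 12 probes, 6 were well above background in the reference of the active EBF3 array and 7 in that of the hGR array. The summed signal of the 12 was 687148 with active EBF3 against 1161790 in the reference, and 904613 with hGR against 883254. The probe LOC397756 made up most of the lower sum with active EBF3, at 415421 against 815528 (-0.97). With active EBF3, 2 of 12 were 2-fold lower, krt1-2-prov (-4.83 ± 0.40) and MGC68905 (-4.52 ± 0.38). The other 3 probes well above background on that array were slightly above 0, krt8-prov at 0.10, krt18-prov at 0.25 and ak-c-A at 0.06. With hGR, 0 of 12 passed 2-fold. The 1 muscle probe, MyoD (LOC397758), had a log2 ratio of 6.74 ± 0.54 with active EBF3 and 0.83 ± 0.30 with hGR. Of 4 mesoderm probes, 2 were well above background, and 1 was above 2-fold in active EBF3 caps and 0 in hGR caps. The summed mesoderm signal was 8569 with active EBF3 against 5455 in the reference and 3442 with hGR against 4578. The probe Brat made up most of that sum, at 7483 against 4789 with active EBF3 and 2626 against 4008 with hGR. LOC398065, the other probe well above background, was above 0 on both arrays, at 1.19 ± 0.27 and 0.60 ± 0.24. The 2 probes thus differed in sign with hGR. The neural cell adhesion probe NCAM was not well above background in any channel. Of 2 Sox17 probes, 1 was well above background, with a summed signal of 424.0 with active EBF3 against 522.0 and 369.4 with hGR against 413.1. The part of these cell types in the ratios of cyclin D1, cyclin E2, cyclin B3 and WEE2A was not tested.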

How the data were processed

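Both arrays are 2-colour Agilent arrays scanned at 10 µm per pixel. Per the file headers, Feature Extraction 8.1.1.1 made the intensity values: it removed a spatially detrended background, corrected the dyes by LOWESS (smoothing factor 0.25) and put surrogates in place of signals near background. The deposited log10 ratio is Cy5 over Cy3, and its deposited p-value, a spot-level value of the software, was not used. The authors' series table equals that log10 ratio with the sign turned (100% of values, within 1e-05).

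The measure here was the log2 ratio of processed Cy3 over Cy5 intensity. Control features and non-uniform spots were left out and 2-fold was the threshold, after the methods of the study. The study's further criterion, an adjusted p-value from a t-test on replicate experiments, could not be applied here. Its removal of genes affected by DEX was not applied either. "Well above background" is the software's flag. A fold with 1 channel not above background is a bound after Aquantile normalization in limma 3.58.1 (R 4.3.3), without dye swaps open to dye bias. No test was run, since the number of arrays (1 for each comparison) limits the precision.

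The members and lists were chosen with earlier results of these data known. Roles (14) were set by hand, because some sequence tags carry misleading text, such as BE680928, whose text names cyclin A. Members were named if past 2-fold, highest or lowest in their role, brightest in the reference, in a role of at most 6 probes, or sharing a gene with another probe; other members are given with their values. Names are those of the array, with RefSeq symbols from Xenopus_laevis_v10.1. Alternatives were background correction, scaling, spot filters, threshold and member lists.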

Additional observations from a re-analysis of the deposited data

Results flagged for a closer look

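Cyclin B4 (LOC398163) had log2 ratios of opposite sign on the arrays, at 0.19 ± 0.16 (spot error) with active EBF3 and -0.89 ± 0.18 with hGR. The first is close to its spot error, and the difference between the groups was not tested. Over the 8 alternative settings the first value ranged from 0.00 to 0.20 and the second from -1.12 to -0.86.

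The kinase CDK9 (cdk9-prov), which acts with cyclin T in transcription, was left out of the counts because its spots were non-uniform on both arrays. With those spots kept, its log2 ratio was -0.51 with active EBF3 (55610 against 79195) and 0.58 with hGR (103515 against 69084), a difference of -1.09 between the groups that was not tested.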

How the results depend on the processing

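The counts and medians of the members mostly held under the alternatives. Median centring without a dye curve gave 4 members past 2-fold with active EBF3 (1 higher, 3 lower, adding cyclin B3 and cdk-8-prov) in place of 2, and a median of -0.31 on the hGR array in place of -0.08, with all gene probes at 0.00. There it also gave 1 higher and 3 lower, in place of 0 and 3. The 1 that was higher was BE680928, a probe at background. Under median centring 1889 of 20833 gene probes were higher and 882 lower with active EBF3. With hGR, 2826 of 20884 gene probes were higher and 673 lower. At 1.5-fold, 8 of 48 members (1 higher, 7 lower) passed with hGR and 9 of 48 (6 higher, 3 lower) between active EBF3 and hGR. Among all gene probes, 1178 of 21343 were higher and 2226 lower with hGR. Between the groups 2293 of 21219 were higher and 1899 lower. The share of members past 1.5-fold either way lay close to that of all gene probes in both of these comparisons, with dim probes kept in. With active EBF3, 3 of 50 members (1 higher, 2 lower) passed 1.5-fold. That was a smaller share than the 1009 higher and 1412 lower of 21283 gene probes. Among measured probes, 1 of 43 members was higher and 5 were lower with hGR, against 508 and 490 of 10422 gene probes. The share of members that were lower was thus the larger there. Between the groups 4 of 43 measured members were higher and 2 lower, against 759 and 815 of 9944. The other alternatives left each count within 1.5 times the main count, at 2 on the active EBF3 array, 2 to 4 on the hGR array and 4 to 6 between the groups. No single log2 ratio past 2-fold changed sign (0 reversals under 8 settings). Only the few values past 2-fold entered that count. Some smaller ratios did change sign with median centring, such as CDK7 with hGR (0.18 to -0.08) and cyclin B3 with hGR (0.13 to -0.11). Median centring moved 74 of 97 single values by more than the SD between reference channels, and normexp with an offset of 50 moved 14 of 98. The log2 ratio of cyclin E2 with active EBF3 ranged from -2.81 to -2.42, that of cyclin D1 from 1.07 to 1.26, that of cyclin B5 with hGR from -2.05 to -1.57, and that of p16Xic2 with hGR, the dimmest of these, from -2.64 to -1.21. No paired analysis was possible because 1 array stands for each group, and for the same reason no replicate could be left out. The 4 members at background limit what can be said of cyclin D2, CDC14 alpha and cdk-8-prov, and the spot error leaves out the spread between embryos.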
